A study of Mus musculus with 12 samples.

Results

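Usp and Ube2 genes encode enzymes that remove and attach ubiquitin, and they were described here in mouse oocytes with and without MTR4, the RNA helicase that delivers nuclear RNA to the RNA exosome. Members were all deposited symbols that begin with Usp and a digit, or with Ube2. These were 87 of 23235 symbols, 52 of them Usp and 35 Ube2. The groups were Mtr4-null and WT oocytes at day 14, described in the labels as growing, and Mtr4-null and WT oocytes at day 21, described as GV, the germinal vesicle stage. All came from ovaries of female mice, with 10 oocytes in a sample, and the labels list 12 libraries, 3 in each of the 4 groups, whereas the design text of the series speaks of duplicates. The sources used here do not give how or in which cells the Mtr4 gene was inactivated, nor which animals supplied each sample.

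Ubiquitin is activated by an E1 enzyme, passed to an E2 conjugating enzyme, most of which carry the Ube2 name, and placed on a target protein, usually with the help of an E3 ligase. Ubiquitin-specific peptidases, the Usp proteins, take it off again and so can spare a protein from the proteasome or end a signal. In the growing oocyte, proteins stored or destroyed by this route govern meiotic arrest, spindle function and the supplies left to the embryo. Usp proteins are large and come from genes with many exons. Most E2 enzymes are little more than a single catalytic domain.

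The deposited values were FPKM, which count fragments per length of transcript and per size of library, as 1 mean per gene and group made by the authors. No spread between libraries could be had from them, so values below carry no error and no test, and sequencing depth is unknown. Differences are Mtr4-null minus WT on the log2(FPKM + 1) scale, on which folds of weakly expressed genes come out too small. Counts of higher and lower genes use a difference of at least 1, which is 2-fold on that scale, a rule of size and not a test. FPKM are relative to the RNA of a library, and in pooled oocytes fewer oocytes with a transcript and less of it in each oocyte cannot be told apart. In the Mtr4-null column of day 21, 0.162% of the values above 0 end in the repeating decimals that a mean of 3 rounded numbers leaves, against 55.4% to 57.4% in the other 3 columns, so it may average another number of libraries than the labels list. Skiv2l2, the deposited symbol of the MTR4 gene, stood at 1.57 FPKM in Mtr4-null and 27.6 FPKM in WT oocytes at day 14, and at 3.86 FPKM in Mtr4-null and 26.3 FPKM in WT oocytes at day 21. The 10 oocyte markers summed to 13200.5 FPKM in Mtr4-null and 16087 FPKM in WT oocytes at day 21, and to between 21407 and 21616 FPKM at day 14. Of the granulosa markers 7 of 12 were below 1 FPKM in every group, and their sum lay between 24.6 and 38.4 FPKM. Of the theca and stroma markers 9 of 10, and of the blood and endothelium markers 6 of 8, were below 1 FPKM in every group, with sums between 1.32 and 2.12 FPKM and between 3.57 and 22.5 FPKM. Some of these markers differed with genotype at day 21. Cyp19a1 stood at 1.48 FPKM in Mtr4-null and 25.3 FPKM in WT oocytes, Inha at 10.9 FPKM in Mtr4-null and 1.72 FPKM in WT oocytes, and Pecam1 at 2.13 FPKM in Mtr4-null and 20.7 FPKM in WT oocytes. The part of other cells in the differences below was not tested.

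Of the members, 45 Usp and 33 Ube2 genes had a mean of at least 1 FPKM over the 4 groups, the minimum set for counting, as did 11913 genes in all. The 7 Usp genes below it were Usp13, Usp18, Usp25, Usp26, Usp44, Usp50 and Usp9y, none above 1.82 FPKM in any group. Usp13 missed the minimum through its low Mtr4-null values and passed it on the WT groups alone. It stood at 0.0827 FPKM in Mtr4-null and 1.66 FPKM in WT oocytes at day 21, a difference of -1.30. Usp18, which removes the ubiquitin-like protein ISG15, and the Y-linked Usp9y were listed at 0 in every group. The Ube2 genes below the minimum were Ube2dnl and Ube2ql1, none above 1.11 FPKM. Usp17l5 and Usp40 passed only through their Mtr4-null values, so each had to be higher there. Genes outside the families passed in this way too, so the shares of all genes given below depend on this minimum. With the minimum set on the WT groups alone, 14.9% of 11160 genes were higher and 28.3% lower at day 21. At day 14, 5.24% of them were higher and 1.68% lower. Usp6nl matches the pattern but encodes a GTPase-activating protein, and Ube2cbp is an older name for an E3 ligase gene.

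Transcripts of the Ube2 genes were far more abundant in sum than those of the Usp genes. Ubiquitin peptidases outside the Usp pattern, such as the abundant Uchl1, are not in these sums. Per transcript length, Ube2 genes summed to 3983 FPKM in Mtr4-null and 4007 FPKM in WT oocytes at day 14, and to 3376 FPKM in Mtr4-null and 3730 FPKM in WT oocytes at day 21. Usp genes summed to 1267 FPKM in Mtr4-null and 1377 FPKM in WT oocytes at day 14, and to 676 FPKM in Mtr4-null and 1412 FPKM in WT oocytes at day 21. The summed Usp level was thus much lower in Mtr4-null oocytes at day 21, while the other sums of each family differed little. Ube2d3, an E2 that works with many E3 ligases, led in WT with 996 FPKM at day 21, rank 71 among all symbols. Ube2t, the E2 of the Fanconi anaemia pathway, followed at 762 FPKM, then Ube2c at 282 FPKM, Ube2w at 239 FPKM and Ube2a at 199 FPKM. Among Usp genes, Usp46 led with 232 FPKM in WT at day 21, rank 495, before Usp15 at 145 FPKM, Usp28 at 80.5 FPKM, Usp3 at 74.1 FPKM and Usp16 at 68.2 FPKM.

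At day 14 the Usp genes differed little between genotypes. None of the 45 was at least 2-fold higher or lower in Mtr4-null oocytes, where 8.1% of all genes tested were higher and 1.55% lower. Their median difference was -0.04, beside 0.05 for all genes tested, and 20 lay above 0 and 25 below it. Of all genes tested, 6501 lay above 0 and 5382 below it. The largest differences among members with at least 5 FPKM were 0.84 for Usp22, at 21.7 FPKM in Mtr4-null and 11.6 FPKM in WT oocytes, and -0.51 for Usp16, at 43.2 FPKM in Mtr4-null and 61.8 FPKM in WT oocytes. The others named at this age lay between -0.48 and 0.59, with Usp27x, Usp34, Usp32, Usp1, Usp46, Usp7 and Usp2 on the lower side and Usp35, Usp5, Usp10, Usp53, Usp19, Usp39 and Usp45 on the higher side.

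The Ube2 genes divided into 2 higher, 1 lower and 30 within 2-fold at day 14, with a median of -0.05. That is 6.06% higher and 3.03% lower, beside 8.1% and 1.55% of all genes tested. Under quantile normalization the division was 1 higher and 1 lower, and of all genes tested 5.93% were higher and 2.69% lower. Ube2j2 encodes an E2 of the endoplasmic reticulum membrane that serves the degradation of misfolded proteins. It stood at 31.2 FPKM in Mtr4-null and 5.48 FPKM in WT oocytes, a 5.69-fold higher FPKM. Ube2l6, which encodes the E2 for ISG15, stood at 11.4 FPKM in Mtr4-null and 4.38 FPKM in WT oocytes, 2.61-fold higher, and its log2 difference of 1.21 became 0.96 under quantile normalization. Ube2u was lower, at 1.11 FPKM in Mtr4-null and 4.35 FPKM in WT oocytes. Next on the lower side came Ube2s at -0.60 and Ube2h at -0.58, and on the higher side Ube2v2 at 0.43, Ube2v1 at 0.41 and Ube2g2 at 0.38.

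At day 21 the Usp genes were mostly lower in Mtr4-null oocytes. Of 45, 20 were at least 2-fold lower and 4 higher, while 25.7% of all genes tested were lower and 20.2% higher. That is 44.4% of the Usp genes lower and 8.89% higher. With the minimum set on the WT groups alone, 21 of 44 Usp genes were lower and 3 higher. Of all genes, 28.3% were then lower and 14.9% higher. Over the 45 Usp genes the median difference was -0.89, beside -0.27 for all genes tested, and 37 of 45 lay below 0. So did 6959 of the 11913 genes tested. Below the median of all genes lay 34 of the 45 Usp genes and 15 of the 33 Ube2 genes. The Ube2 genes divided into 9 lower and 4 higher of 33, which is 27.3% and 12.1%, and their median was -0.01, with 17 below 0. The choice of scaling moved these counts, since median-of-ratios scaling over the genes tested brought the median of all genes from -0.27 to 0. On that scale 15 Usp genes were lower and 5 higher, 5 Ube2 genes were lower and 6 higher, and of all genes tested 18.1% were lower and 24.3% higher. The deposited scale and the 3 other scalings all called 15 of the Usp genes lower and 4 higher, and 5 of the Ube2 genes lower and 4 higher. The share of all genes called by all of them was not computed. Taken singly, they called 18.1% to 25.7% of all genes lower and 19.8% to 24.3% higher.

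**Figure D1:**
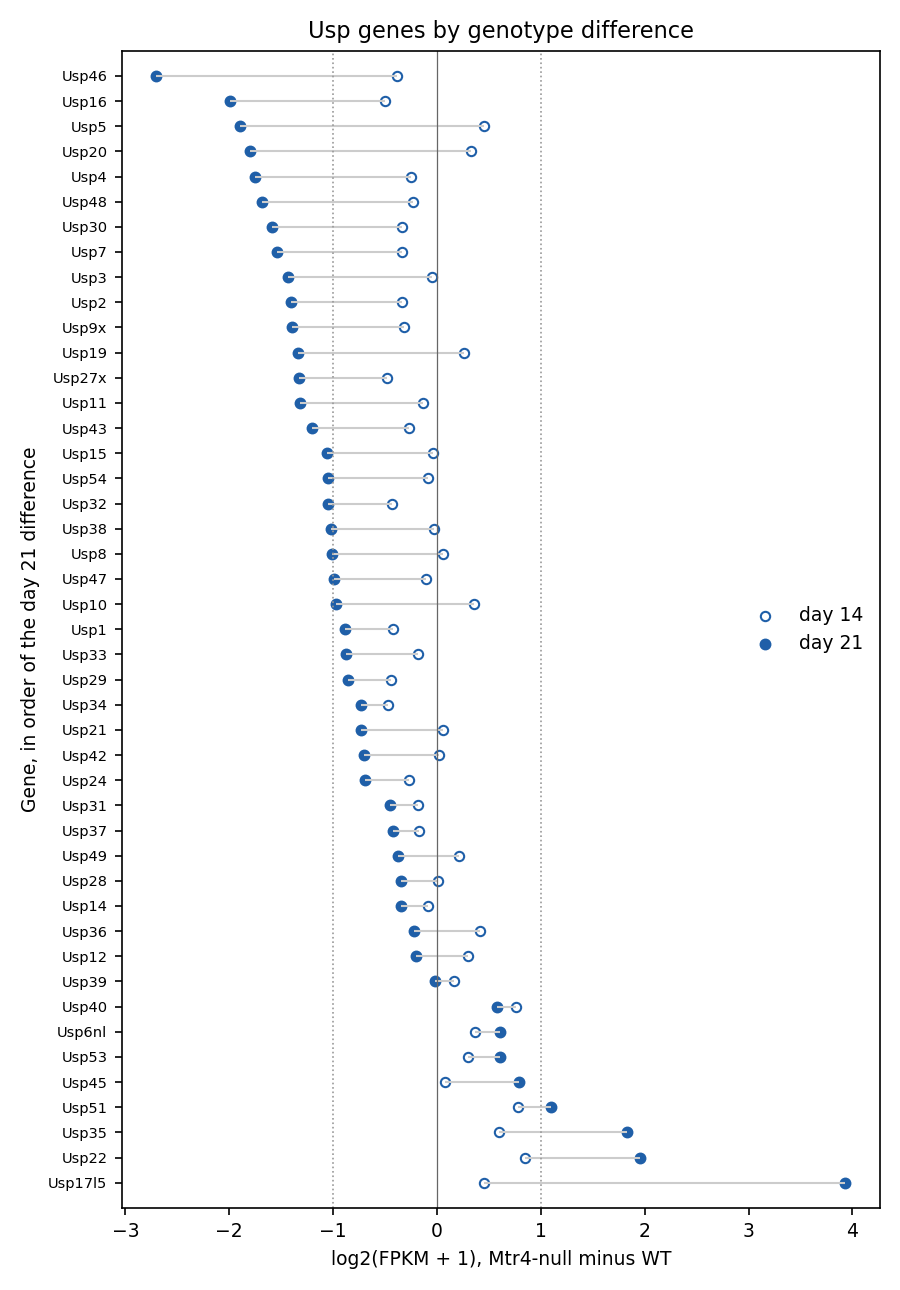
Difference of log2(FPKM + 1) between Mtr4-null and WT group means for the 45 Usp genes, open circles for day 14 and filled circles for day 21, with dotted lines at 2-fold. All day 14 circles lie inside the dotted lines, and 20 of the day 21 circles lie left of the lower line and 4 right of the upper line.

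Usp46 had the largest lower difference of the family, -2.70. It encodes a peptidase that is active when bound by the WD-repeat protein WDR48. Usp46 stood at 179 FPKM in Mtr4-null and 234 FPKM in WT oocytes at day 14, and at 34.8 FPKM in Mtr4-null and 232 FPKM in WT oocytes at day 21. The Mtr4-null mean of day 21 was by far the lowest of the 4, 6.66-fold under WT of that age. Its close relative Usp12 stood at 1.76 FPKM in Mtr4-null and 2.17 FPKM in WT oocytes at day 21, a difference of -0.20. Usp1, whose protein WDR48 also binds and which acts on FANCD2 and PCNA in DNA repair, stood at 12.6 FPKM in Mtr4-null and 24.2 FPKM in WT oocytes. The partner gene Wdr48 itself was at 8.34 FPKM in Mtr4-null and 18.6 FPKM in WT oocytes, a difference of -1.07.

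Among the 12 Usp genes counted that were grouped here under chromatin and DNA repair, 6 were lower and 2 higher at day 21. That is 50% and 16.7% beside 25.7% and 20.2% of all genes tested. The grouping was a choice made here with earlier results of these data known, and it leaves out Usp45, described below with DNA repair, at 0.79. Usp16 and Usp3 encode peptidases of ubiquitylated histone H2A. Usp16 stood at 16.3 FPKM in Mtr4-null and 68.2 FPKM in WT oocytes, 4.17-fold lower, and Usp3 at 26.8 FPKM in Mtr4-null and 74.1 FPKM in WT oocytes, 2.76-fold lower. Usp16 had already been the lowest Usp difference at day 14, whereas Usp3 differed there by -0.04. Usp7, whose protein acts on MDM2 and DNMT1, stood at 22.2 FPKM in Mtr4-null and 66.3 FPKM in WT oocytes at day 21. Usp48 stood at 3.41 FPKM in Mtr4-null and 13.1 FPKM in WT oocytes. Usp28, a peptidase known for sparing MYC, was in the same class at 62.9 FPKM in Mtr4-null and 80.5 FPKM in WT oocytes, within 2-fold.

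The 3 related genes of the SAGA type differed in direction. Usp22 encodes the peptidase of the SAGA coactivator, which acts on histone H2B, and stood at 26.4 FPKM in Mtr4-null and 6.08 FPKM in WT oocytes at day 21, 4.34-fold higher. Its relatives Usp51 and Usp27x are X-linked and have 2 exons each. Usp51 stood at 5.69 FPKM in Mtr4-null and 2.13 FPKM in WT oocytes, and Usp27x at 2.61 FPKM in Mtr4-null and 8.08 FPKM in WT oocytes. Both kept their sign at day 14, at 0.78 for Usp51 and -0.48 for Usp27x. The SAGA adaptor gene Atxn7l3 stood at 1.49 FPKM in Mtr4-null and 0.0386 FPKM in WT oocytes at day 21, below the minimum mean for counting. Other genes of the same module were level, with Atxn7 at 4.35 FPKM in Mtr4-null and 4.57 FPKM in WT oocytes and Eny2 at 85.1 FPKM in Mtr4-null and 90.1 FPKM in WT oocytes.

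The 13 Usp genes grouped here under membranes, organelles and signalling were all below 0 at day 21, as were 6959 of the 11913 genes tested. Their median was -1.34. Of these, 10 were at least 2-fold lower, 76.9% beside 25.7% of all genes tested. The grouping was a choice made here with earlier results of these data known, so the shared sign and the share are descriptions only. The 18 Usp genes outside every role group include 2 at least 2-fold higher, Usp35 and Usp17l5. Another grouping could change these shares. Of the 10, Usp8, Usp15 and Usp32 were within 2-fold under median-of-ratios scaling. Usp30, whose protein sits on the mitochondrial outer membrane and opposes mitophagy, stood at 13.96 FPKM in Mtr4-null and 43.9 FPKM in WT oocytes. Usp19, which encodes a peptidase anchored in the endoplasmic reticulum, stood at 24.0 FPKM in Mtr4-null and 62.3 FPKM in WT oocytes. Usp8, needed for endosomal sorting, was close to the 2-fold line at 10.9 FPKM in Mtr4-null and 22.9 FPKM in WT oocytes. Usp9x stood at 22.8 FPKM in Mtr4-null and 61.8 FPKM in WT oocytes, and Usp2 at 24.8 FPKM in Mtr4-null and 67.2 FPKM in WT oocytes. The 2-fold line was crossed by neither Usp10, at 20.3 FPKM in Mtr4-null and 40.9 FPKM in WT oocytes, nor Usp33, at 9.46 FPKM in Mtr4-null and 18.2 FPKM in WT oocytes.

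The paralogues Usp4, Usp11 and Usp15 were all lower at day 21, though Usp15 was within 2-fold at -0.91 under median-of-ratios scaling. Usp15, which acts in TGF-beta signalling, stood at 69.0 FPKM in Mtr4-null and 145 FPKM in WT oocytes. Usp4 stood at 13.2 FPKM in Mtr4-null and 47.0 FPKM in WT oocytes, and Usp11 at 4.28 FPKM in Mtr4-null and 12.2 FPKM in WT oocytes. The differences at day 21 were -1.06 for Usp15, -1.75 for Usp4 and -1.32 for Usp11. At day 14 they had been -0.04 for Usp15, -0.25 for Usp4 and -0.14 for Usp11, so none stood out then.

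Usp5 and Usp20 were among several Usp genes whose sign changed between the ages, as were Usp19, Usp10 and Usp8. Usp5 encodes the peptidase that takes apart free ubiquitin chains for reuse, and stood at 14.9 FPKM in Mtr4-null and 10.6 FPKM in WT oocytes at day 14. At day 21 it stood at 3.87 FPKM in Mtr4-null and 17.2 FPKM in WT oocytes, 4.44-fold lower. Usp20 stood at 3.24 FPKM in Mtr4-null and 2.38 FPKM in WT oocytes at day 14, and at 0.750 FPKM in Mtr4-null and 5.08 FPKM in WT oocytes at day 21. Neither was past 2-fold at day 14, and no member was past 2-fold in opposite directions at the 2 ages. Usp14, the peptidase of the proteasome, stood at 26.8 FPKM in Mtr4-null and 34.3 FPKM in WT oocytes at day 21, but 2169 of its annotated exonic bases overlap Thoc1, so its value is uncertain.

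The 18 Usp genes outside the role groups (chromatin and repair, membranes and signalling, ubiquitin recycling) had a median of -0.44, with 3 lower and 2 higher. That is 16.7% lower beside 25.7% of all genes tested. Besides Usp22 and Usp51, the genes higher at day 21 were Usp35 and Usp17l5. Usp35 stood at 9.13 FPKM in Mtr4-null and 1.85 FPKM in WT oocytes, 4.93-fold higher, while its paralogue Usp38 was lower, at 20.5 FPKM in Mtr4-null and 42.6 FPKM in WT oocytes, but within 2-fold at -0.88 under median-of-ratios scaling. Usp17l5 belongs to a multicopy family of near-identical genes among which reads may be shared. It stood at 0.736 FPKM in Mtr4-null and 0.269 FPKM in WT oocytes at day 14, and at 16.5 FPKM in Mtr4-null and 0.145 FPKM in WT oocytes at day 21. Only the Mtr4-null mean of day 21 was high. Usp45, which acts on the DNA repair nuclease ERCC1, and Usp53 were on the higher side within 2-fold, at 0.79 and 0.61. Usp39, a splicing protein without peptidase activity, stayed level at 63.1 FPKM in Mtr4-null and 64.0 FPKM in WT oocytes.

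**Figure D2:**
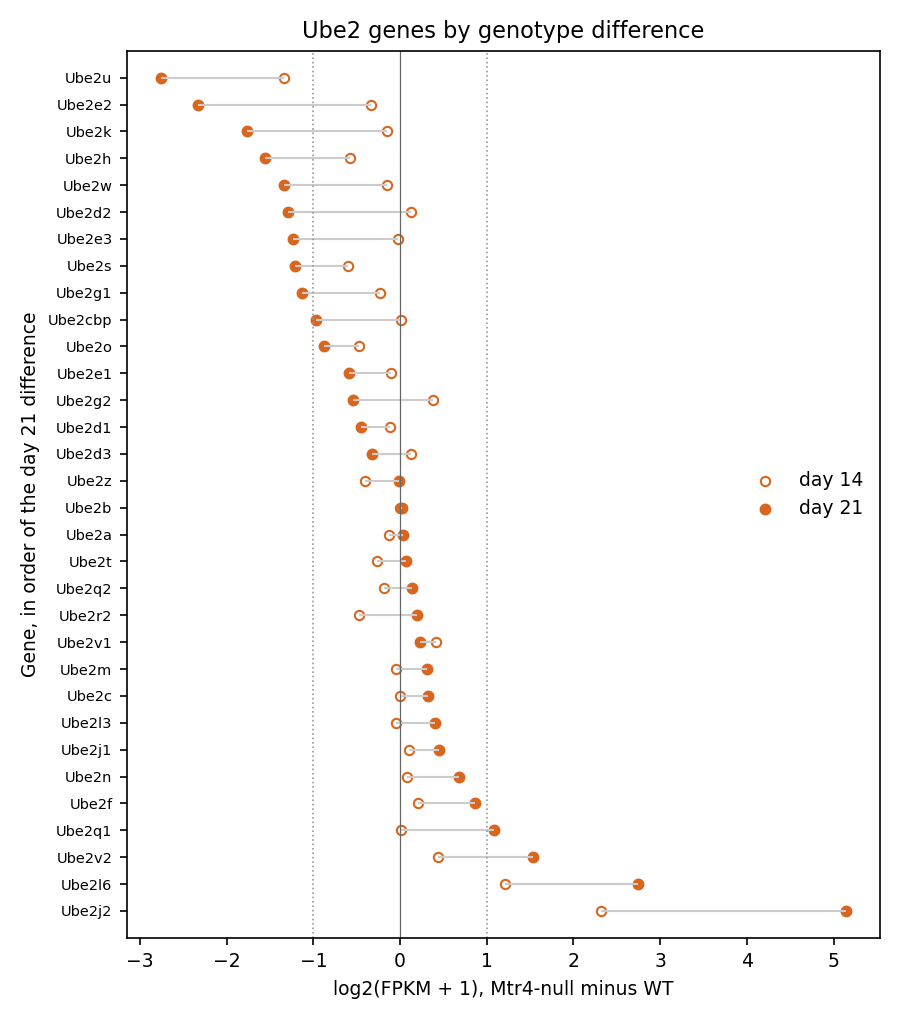
Difference of log2(FPKM + 1) between Mtr4-null and WT group means for the Ube2 genes counted, but for 1 not reported here, open circles for day 14 and filled circles for day 21, with dotted lines at 2-fold. At day 21 the genes run from Ube2u at -2.75 to Ube2j2 at 5.14, with 9 past the lower line and 4 past the upper line.

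Among Ube2 genes, Ube2j2 stood apart with 231 FPKM in Mtr4-null and 5.59 FPKM in WT oocytes at day 21, a 41.3-fold higher FPKM. Its annotated exons share no bases with another gene. The other E2 genes of endoplasmic reticulum degradation did not share this, with Ube2j1 at 12.9 FPKM in Mtr4-null and 9.16 FPKM in WT oocytes, Ube2g2 at 41.9 FPKM in Mtr4-null and 61.3 FPKM in WT oocytes, and Ube2g1 at 48.5 FPKM in Mtr4-null and 107 FPKM in WT oocytes. Ube2g1 was within 2-fold at -0.98 under median-of-ratios scaling. Ube2l6 stood at 29.3 FPKM in Mtr4-null and 3.52 FPKM in WT oocytes, 8.30-fold higher. Its modifier gene Isg15 was at or near 0 in every group, with 0 FPKM in Mtr4-null and 0.0425 FPKM in WT oocytes at day 21. Ube2j2 and Ube2l6 were the only members at least 2-fold higher at both ages.

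The promoters of Ube2j2 and Ube2l6 are shown because these genes were higher at both ages, and that of Usp46 because it is the most abundant Usp gene in WT and had the largest lower Usp difference. Each is the first RefSeq window of the gene on GRCm38.p6, from 250 bases before the start to 50 after it, and 66 of the 87 members have such an entry by symbol. Capitals mark, on either strand, matches to common promoter motifs. These were CCGGAAG, the core of ETS sites, and GCCATCTT, the core of YY1 sites. The others were the CCAAT box, the TATA box, searched as TATAAA, and the GC box, searched as GGGCGG. The motifs were chosen as common promoter elements with results of these genes known.
Ube2j2, chr4:155943563-155943862, plus strand: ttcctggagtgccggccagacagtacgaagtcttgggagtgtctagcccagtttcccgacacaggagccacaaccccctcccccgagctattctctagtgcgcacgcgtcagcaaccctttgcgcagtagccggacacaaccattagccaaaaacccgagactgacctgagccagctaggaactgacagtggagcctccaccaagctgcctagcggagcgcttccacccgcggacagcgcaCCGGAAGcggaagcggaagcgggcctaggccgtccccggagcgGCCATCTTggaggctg
Ube2l6, chr2:84798578-84798877, plus strand: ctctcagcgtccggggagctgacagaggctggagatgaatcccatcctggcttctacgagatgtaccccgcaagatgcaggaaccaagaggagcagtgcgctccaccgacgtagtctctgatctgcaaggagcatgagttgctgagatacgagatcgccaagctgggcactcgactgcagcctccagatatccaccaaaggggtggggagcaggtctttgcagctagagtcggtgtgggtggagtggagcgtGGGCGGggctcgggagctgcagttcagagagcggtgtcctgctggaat
Usp46, chr5:74068362-74068661, minus strand: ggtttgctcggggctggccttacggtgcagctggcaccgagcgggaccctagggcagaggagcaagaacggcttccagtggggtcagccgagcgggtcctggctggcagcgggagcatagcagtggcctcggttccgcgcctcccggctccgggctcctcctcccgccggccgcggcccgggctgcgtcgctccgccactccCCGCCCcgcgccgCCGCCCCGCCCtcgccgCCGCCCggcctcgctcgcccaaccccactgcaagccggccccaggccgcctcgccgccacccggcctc
The Ube2j2 window holds 1 CCGGAAG and 1 GCCATCTT and none of the other letters. The Ube2l6 window holds 1 GGGCGG and the Usp46 window 4, of which a pair overlap each other. GGGCGG is in 69.2% of 39 Usp windows, 74.1% of 27 Ube2 windows and 62.5% of the windows of 8394 genes tested, or 35.9% of all 27025 windows. CCGGAAG is in 20.5% of Usp, 18.5% of Ube2, 18.8% of tested and 9.12% of all windows. GCCATCTT is in 10.3% of Usp windows, which is 4 genes, 18.5% of Ube2 windows, which is 5 genes, 4.88% of tested and 2.88% of all windows. CCAAT is in 25.6% of Usp, 25.9% of Ube2, 40.0% of tested and 37.9% of all windows, and TATAAA in 5.13% of Usp, 7.41% of Ube2, 7.33% of tested and 14.2% of all windows. These are matches of letters and not binding sites.

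The E2 genes for lysine 63 chains, which signal rather than mark for destruction, were all above 0 at both ages on the deposited scale. At day 14 Ube2n was so by only 0.09, and its sign may not hold under another scaling. Of 11913 genes tested, 6501 lay above 0 at day 14 and 4897 at day 21. Ube2v2 stood at 32.8 FPKM in Mtr4-null and 10.6 FPKM in WT oocytes at day 21, 3.08-fold higher. Its catalytic partner Ube2n stood at 85.7 FPKM in Mtr4-null and 53.0 FPKM in WT oocytes, and Ube2v1 at 41.7 FPKM in Mtr4-null and 35.4 FPKM in WT oocytes, both within 2-fold. Ube2v1 shares 1673 exonic bases with Gm20431, so its value is uncertain. Ube2q1 was the fourth higher gene, at 9.45 FPKM in Mtr4-null and 3.92 FPKM in WT oocytes.

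The D and E subfamilies, which serve many E3 ligases, were all below 0 at day 21, as were 6959 of the 11913 genes tested. Of the 6 members, 3 were at least 2-fold lower, which is 50% beside 25.7% of all genes tested. Ube2d2 stood at 72.2 FPKM in Mtr4-null and 178 FPKM in WT oocytes, Ube2e3 at 18.8 FPKM in Mtr4-null and 45.5 FPKM in WT oocytes, and Ube2e2 at 0.211 FPKM in Mtr4-null and 5.08 FPKM in WT oocytes. Ube2d2 and Ube2e3 were within 2-fold under median-of-ratios scaling over the genes tested, at -0.97 and -0.92. The abundant Ube2d3 stood at 794 FPKM in Mtr4-null and 996 FPKM in WT oocytes, Ube2e1 at 47.3 FPKM in Mtr4-null and 71.6 FPKM in WT oocytes, and Ube2d1 at 8.26 FPKM in Mtr4-null and 11.6 FPKM in WT oocytes. Ube2d proteins are close to identical, so reads may have been shared among these genes and their pseudogenes.

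Other lower E2 genes at day 21 differed in what they do. Ube2k, which builds lysine 48 chains, stood at 25.8 FPKM in Mtr4-null and 89.9 FPKM in WT oocytes, 3.48-fold lower. Ube2h, the E2 of the CTLH ligase, stood at 17.8 FPKM in Mtr4-null and 54.4 FPKM in WT oocytes, and had been among the lowest at day 14. Ube2w, which modifies protein N termini, stood at 94.0 FPKM in Mtr4-null and 239 FPKM in WT oocytes. Ube2u stood at 0.847 FPKM in Mtr4-null and 11.5 FPKM in WT oocytes, and it was the only member at least 2-fold lower at both ages.

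The E2 genes of the anaphase-promoting complex, the ligase that drives exit from meiotic divisions, parted from each other. Ube2s, which extends lysine 11 chains, stood at 75.8 FPKM in Mtr4-null and 176 FPKM in WT oocytes at day 21, though at -0.88 it was within 2-fold under median-of-ratios scaling over the genes tested. Ube2c, which starts the chains, stood at 354 FPKM in Mtr4-null and 282 FPKM in WT oocytes. The exons of Ube2s overlap those of Rpl28 by 183 bases and the exons of Ube2c those of Tnnc2 by 592 bases, so both values are uncertain.

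Other E2 genes were within 2-fold at day 21, some of them nearly level. Of the RAD6 genes, which serve histone H2B and DNA damage tolerance, Ube2a stood at 203 FPKM in Mtr4-null and 199 FPKM in WT oocytes, and Ube2b at 76.8 FPKM in Mtr4-null and 75.6 FPKM in WT oocytes. Of their E3 partner genes, by contrast, Rnf20 stood at 5.78 FPKM in Mtr4-null and 20.4 FPKM in WT oocytes, and Rnf40 at 4.47 FPKM in Mtr4-null and 17.6 FPKM in WT oocytes. Ube2t stood at 800 FPKM in Mtr4-null and 762 FPKM in WT oocytes. Of the NEDD8 enzymes, Ube2m stood at 9.74 FPKM in Mtr4-null and 7.65 FPKM in WT oocytes, and Ube2f at 54.8 FPKM in Mtr4-null and 29.6 FPKM in WT oocytes, a difference of 0.86 and the highest below the 2-fold line.

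**Figure D3:**
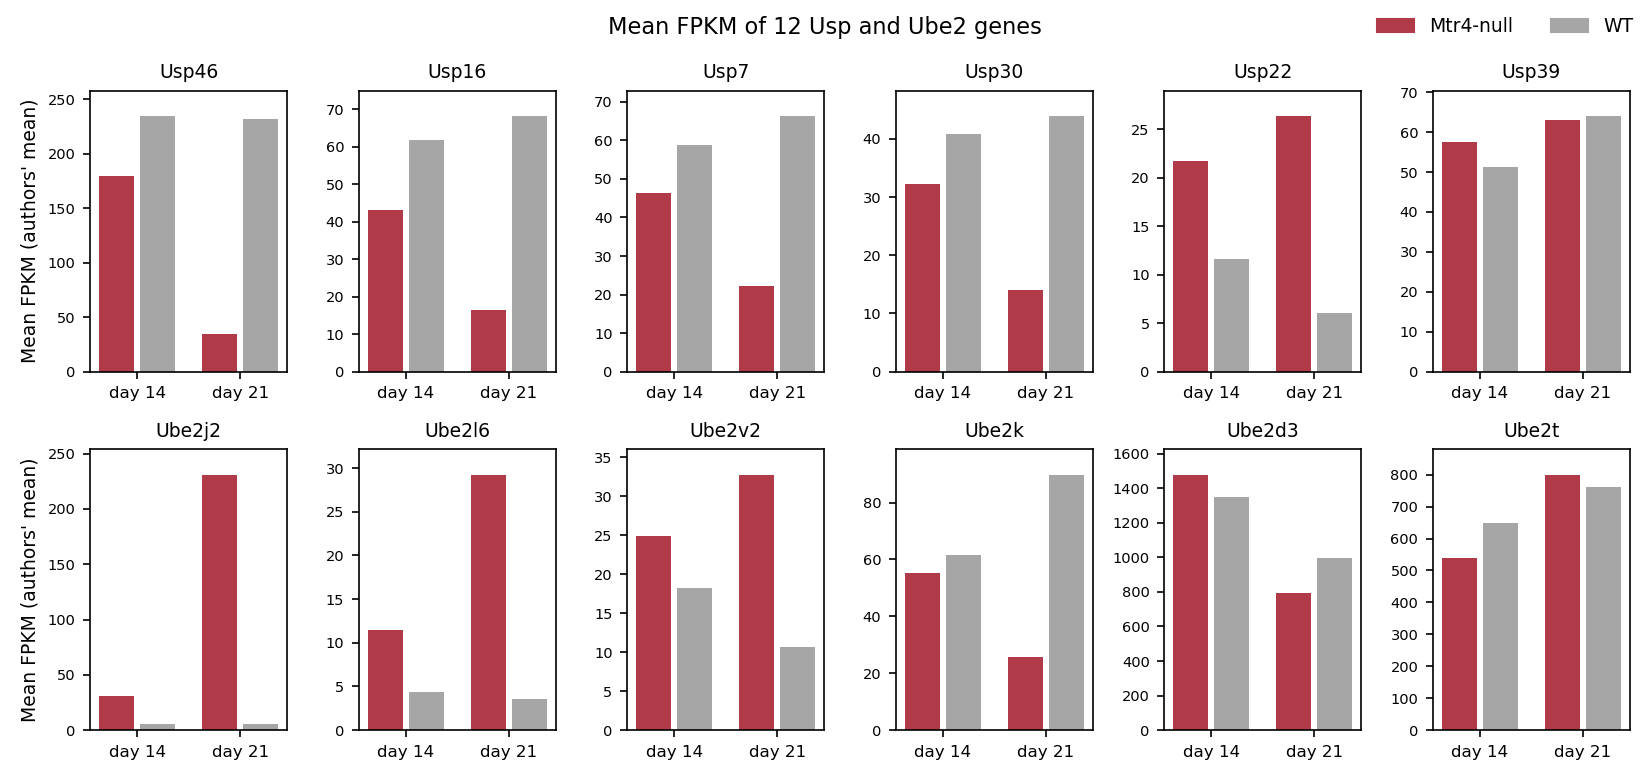
Mean FPKM of 12 members, red bars for Mtr4-null and grey bars for WT at day 14 and day 21, each panel with its own axis from 0. Bars are the authors' group means and have no error. Usp46, Usp16, Usp7, Usp30 and Ube2k are lowest in the Mtr4-null bar of day 21. At day 14 their Mtr4-null bars are also below WT, by less. Usp22, Ube2j2, Ube2l6 and Ube2v2 are highest in the Mtr4-null bar of day 21, and Usp39, Ube2d3 and Ube2t differ less.

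The many-exon Usp genes and the short Ube2 genes had nearly equal medians at day 14 and lay apart at day 21. The Usp median minus the Ube2 median was 0.0024 at day 14 and -0.88 at day 21. By the transcript with the longest coding sequence in GENCODE M21, the Usp genes counted had a median of 18 exons, between 2 and 80, and the Ube2 genes a median of 6, between 4 and 18. Their coding sequences had medians of 2763 and 549 bases. The longest annotated transcript was first meant to be used, but in 8 Usp and 12 Ube2 genes it has another number of exons, and for Ube2d3 it is 1 long exon, so the choice was changed after the data were seen and class values by the longest transcript are given too.

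Exon number went with the day 21 difference over all protein-coding genes tested. The median of 3069 genes with 1 to 5 exons was 0.14, that of 3339 genes with 6 to 10 exons -0.34, that of 3145 genes with 11 to 20 exons -0.55, and that of 1378 genes with over 20 exons -0.73. At day 14 the same medians lay between 0.0015 and 0.11. Within each family the classes showed it in part. The 6 Ube2 genes with 4 or 5 exons, namely Ube2l3, Ube2l6, Ube2n, Ube2r2, Ube2v1 and Ube2v2, were all above 0 at day 21, with a median of 0.54. By the longest transcript the class holds 14 Ube2 genes with 1 to 5 exons, whose median was 0.13, with 2 lower and the lowest at -2.33, so that statement rests on the transcript chosen. The 24 Ube2 genes with 6 to 10 exons had a median of -0.49, and 9 of them, 37.5%, were lower, beside 25.8% of all genes in that class. Ube2j2 was the only one of them at least 2-fold higher, which is 4.17% beside 17.3% of all genes in that class.

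Where both families have members, they can be set side by side. With 1 to 5 exons, the 3 Usp genes had a median of 1.09 and the 6 Ube2 genes one of 0.54. The Usp genes were Usp17l5 and Usp51, both higher, and Usp27x, which was lower. Usp17l5 passed the minimum only through its Mtr4-null values and so had to be higher. The Usp median of this class rests in part on that filter. By the longest transcript, 5 Usp genes in that class had a median of -0.73. With 6 to 10 exons, 6 Usp genes had a median of -0.88 and 24 Ube2 genes one of -0.49. With 11 to 20 exons, 18 Usp genes had a median of -0.71, and the Ube2 genes were only Ube2o at -0.87, Ube2q2 at 0.14 and Ube2q1 at 1.09. The 18 Usp genes with over 20 exons had a median of -1.05, and 10 of them, 55.6%, were lower, beside 38.5% of all genes in that class. None of these 18 was at least 2-fold higher, and only 6.17% of all genes in that class were. In each of the 3 upper classes the Usp median lay below that of all genes of the class. Exon number itself ordered the members weakly, with a Spearman correlation across genes of -0.26 for 45 Usp genes, -0.18 for 33 Ube2 genes and -0.26 for 10931 protein-coding genes. With the longest transcript, the correlation was -0.20 for Usp, -0.14 for Ube2 and -0.23 for protein-coding genes. The correlation with the WT level was -0.56 for Usp and -0.28 for Ube2 genes, beside -0.39 for protein-coding genes. WT values enter the difference too, genes are not independent, and these are descriptions only.

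**Figure D4:**
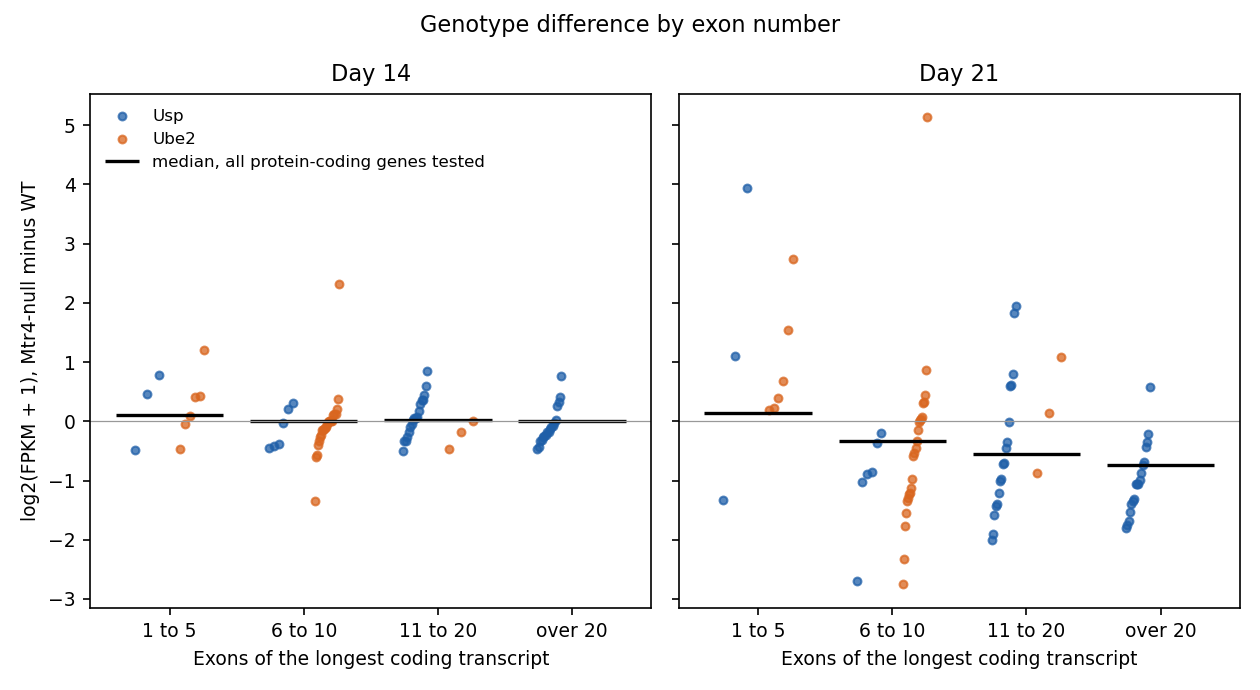
Difference of log2(FPKM + 1) between Mtr4-null and WT group means at day 14 and day 21 by number of exons in the transcript with the longest coding sequence. Points are Usp and Ube2 genes, spread sideways in order of value, and black lines are medians of all protein-coding genes tested, which go from 0.14 in the lowest to -0.73 in the highest exon class at day 21.

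With age alone the members differed little in WT oocytes. Between WT day 21 and WT day 14, none of 45 Usp genes and 1 of 33 Ube2 genes was at least 2-fold higher, and none was lower, while 2.02% of all genes tested were higher and 3.32% lower. The Ube2 gene was Ube2u, 2.64-fold higher at day 21 than at day 14 in WT. Between Mtr4-null day 21 and Mtr4-null day 14, 17 Usp genes were lower and 1 higher, and 4 Ube2 genes were lower and 2 higher, while 18.6% of all genes tested were lower and 9.08% higher. This contrast shares its day 21 mean with the genotype contrast, so it adds no separate evidence. The genotype difference at day 21 was larger in size than the WT difference with age in 42 of 45 Usp and 20 of 33 Ube2 genes, and in 9807 of 11913 genes tested.

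**Figure D5:**
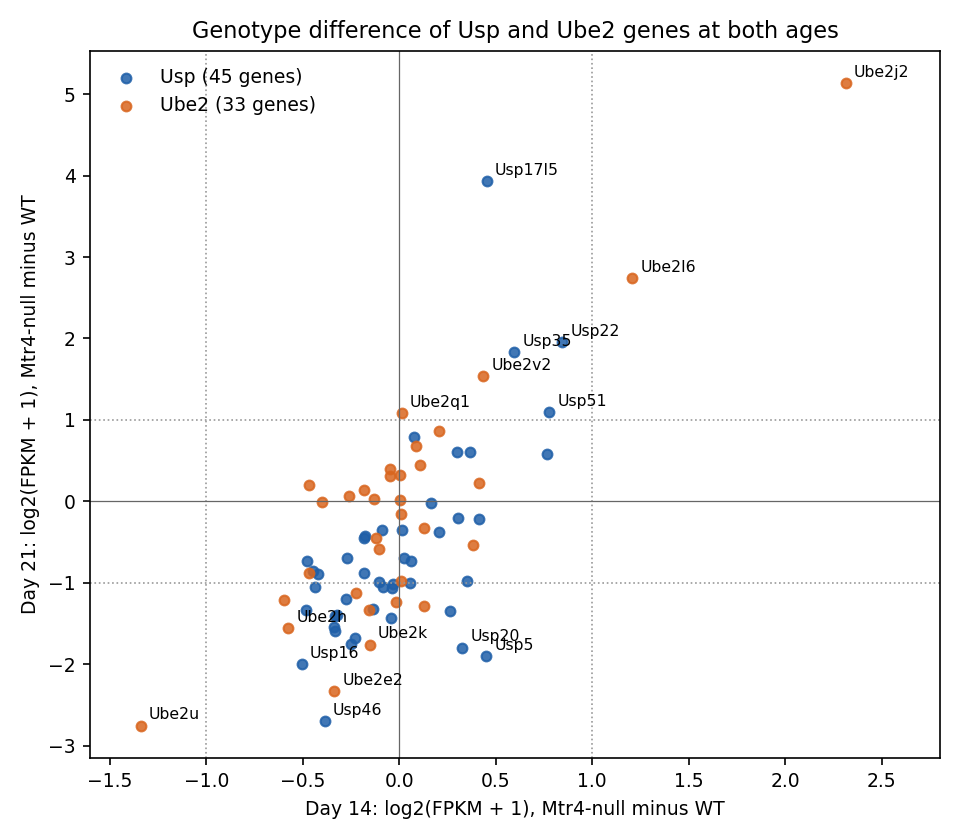
Difference of log2(FPKM + 1) between Mtr4-null and WT group means at day 14 (horizontal) and day 21 (vertical) for 45 Usp and 33 Ube2 genes, with dotted lines at 2-fold. Ube2j2 and Ube2l6 lie past the upper line on both axes and Ube2u past the lower line on both, and most Usp points lie near 0 on the horizontal axis and below 0 on the vertical axis.

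The sign was the same at both ages for 33 of 45 Usp genes and 22 of 33 Ube2 genes, beside 8653 of 11913 genes tested. The day 21 difference was the larger in size for 41 Usp and 27 Ube2 genes, and for 10027 of all genes tested. Of the 20 Usp genes lower at day 21, 19 had differed by under 0.5 at day 14, and the other was Usp16. The same held for 6 of 9 Ube2 genes and 2260 of 3067 of all genes tested that were lower at day 21. The typical size of a genotype difference, as the median of its absolute value, was 0.30 at day 14 and 1.02 at day 21 for Usp genes, and 0.15 and 0.68 for Ube2 genes.

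The rest of the pathway was read from lists outside the pattern. Of 34 other ubiquitin peptidases counted, 8 were lower and 3 higher at day 21, which is 23.5% and 8.82% beside 25.7% and 20.2% of all genes tested. At day 14, 1 was lower and 3 higher, so 8.82% were higher beside 8.1% of all genes tested. Of the higher genes, Dub1 and Otud7a passed the minimum only through their Mtr4-null values, so each had to be higher. Cyld, a peptidase of the same fold as the Usp proteins that cuts lysine 63 chains, stood at 31.3 FPKM in Mtr4-null and 4.002 FPKM in WT oocytes at day 14, and at 252 FPKM in Mtr4-null and 3.89 FPKM in WT oocytes at day 21. That is 64.7-fold higher at day 21, and the value was high in both Mtr4-null means. Uchl1, an abundant peptidase of oocytes and neurons, stood at 1074 FPKM in Mtr4-null and 2170 FPKM in WT oocytes at day 21, and Bap1, a histone H2A peptidase, at 9.30 FPKM in Mtr4-null and 40.9 FPKM in WT oocytes. Uchl4 stood at 0.516 FPKM in Mtr4-null and 6.08 FPKM in WT oocytes.

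Of 9 E1 enzyme genes counted, 2 were lower and 1 higher at day 21, which is 22.2% and 11.1% beside 25.7% and 20.2% of all genes tested, and none differed 2-fold at day 14. Uba1, the main E1 for ubiquitin, stood at 34.2 FPKM in Mtr4-null and 76.9 FPKM in WT oocytes, and Atg7, the E1 of autophagy, at 1.70 FPKM in Mtr4-null and 5.87 FPKM in WT oocytes. Mocs3, at 8.28 FPKM in Mtr4-null and 0.621 FPKM in WT oocytes, passed the minimum only through its Mtr4-null values, so it had to be higher. Of 13 genes for ubiquitin and its relatives, 1 was lower at day 21, which is 7.69% beside 25.7% of all genes tested. This was Atg12, at 54.8 FPKM in Mtr4-null and 120 FPKM in WT oocytes.

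Of 8 E2 and E2-like genes named otherwise, 3 were lower at day 21, namely Tsg101, Atg3 and Atg10, which is 37.5% beside 25.7% of all genes tested. Tsg101, an inactive E2 relative of endosomal sorting, stood at 100.1 FPKM in Mtr4-null and 242 FPKM in WT oocytes. Cdc34, the E2 of cullin ligases, was the one higher at day 14, at 173 FPKM in Mtr4-null and 83.1 FPKM in WT oocytes. Of 20 E3 ligase genes, 4 were lower and 1 higher at day 21, which is 20% and 5% beside 25.7% and 20.2% of all genes tested, and none differed 2-fold at day 14. Besides Rnf20 and Rnf40, the lower ones were Cul4b, at 18.9 FPKM in Mtr4-null and 78.6 FPKM in WT oocytes, and Ube4b, at 7.78 FPKM in Mtr4-null and 26.4 FPKM in WT oocytes. Rnf7, a RING protein of cullin ligases, was higher, at 168 FPKM in Mtr4-null and 31.9 FPKM in WT oocytes. Of 7 peptidases for SUMO and NEDD8, Senp6 alone was lower at day 21, at 10.5 FPKM in Mtr4-null and 32.0 FPKM in WT oocytes, which is 14.3% of the list. Of 7 partner genes of Usp proteins, Wdr48 and Gmps were lower at day 21, at -1.07 and -1.03. That is 28.6% of the list, beside 25.7% of all genes tested. G3bp1, a partner of USP10, was higher, at 73.8 FPKM in Mtr4-null and 22.5 FPKM in WT oocytes. No values under the other scalings are given for genes of the lists outside the pattern. Those near the 2-fold line, such as Wdr48, Gmps, Uba1 at -1.15, Atg12 at -1.11 and Uchl1 at -1.01, may not stay past it.

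Reads of neighbouring genes touch some of these values, since the libraries were not made to keep strand. The annotated exons of 18 of the 45 Usp genes and 9 of the 33 Ube2 genes share bases with another gene. Among those named, long overlaps besides those given above are 2137 bases of Usp34 with Ahsa2, 1670 of Ube2l3 with Ydjc, 1478 of Usp33 with Gm43857, 1174 of Usp38 with Gm9725 and 718 of Ube2e1 with Nkiras1. Shorter ones are 329 bases of Usp30 with Alkbh2, 288 of Usp46 with Usp46os2, 253 of Ube2w with Gm38342 and 192 of Usp16 with Cct8. All of these values are uncertain to that extent. The part of such overlaps in the differences was not tested. Without the members that share bases, 12 of 27 Usp genes were lower and 4 higher at day 21, and 6 of 24 Ube2 genes were lower and 4 higher, with medians of -0.89 and 0.03. Of all genes tested, 25.7% were lower and 20.2% higher.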

How the data were processed

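Poly(A) RNA of oocyte samples was sequenced after Smart-seq2, per the labels' protocols, with oligo-dT priming and ERCC spike-in RNA. The submitters' processing notes name the build mm9 and the tools Cufflinks 2.2.1 and TopHat2 2.1.1, without saying what each did. Deposited values are FPKM, as the authors' mean per group, with no values per library, so depth and precision are unknown. Differences of log2(FPKM + 1) were computed over the 11913 genes with a mean of at least 1 FPKM, with Python 3.11.15, pandas 2.3.3 and scipy 1.17.1, and the script was tested on simulated data. Exon numbers and overlaps came from GENCODE M21 on GRCm38, matched by symbol or synonym for all 87 members. The authors' build differs, so only RefSeq promoter coordinates are printed. Named were, per family and genotype contrast, up to 8 largest differences in each direction among members with at least 5 FPKM, the 5 most abundant in WT at day 21, and up to 4 members of each pathway list. Further members were named by role after their values were seen. The members and lists were chosen with earlier results of these data known. Alternatives were 3 other scalings, a pseudocount of 0.1, other filters and other member sets. Of the genes counted, 1 Ube2 gene and 1 modifier gene are not reported here by name.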

Additional observations from a re-analysis of the deposited data

How the results depend on the processing

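No paired analysis was possible because the table holds group means without replicate numbers, and for the same reason leaving out single libraries was not run. For the tables compared here, medians that moved by under 0.1 and counts within 1.5 times count as unchanged. The filters cannot change a gene's own difference, so single members were recomputed under the 3 scalings and the pseudocount only. Of 40 differences of members past 2-fold, none changed sign and 30 stayed past 2-fold under all 4. The 10 others were Ube2l6 at day 14 (quantile normalization), Ube2d2, Ube2e3 and Ube2s at day 21 (median-of-ratios scaling over the genes tested, an alternative added after the data were seen), Usp32 and Usp54 (both median-of-ratios scalings), and Usp8, Usp15, Usp38 and Ube2g1 (all 3 scalings), with values between -0.98 and -0.71 at day 21. The Usp median at day 21, relative to all genes -0.62, was -0.73 with a pseudocount of 0.1 and -0.86 without the filter on low values. The Ube2 median at day 21, relative to all genes 0.26, was 0.40 with the filter on the WT groups alone and turned to -0.11 without a filter, where the median of all genes is -0.013. The Usp minus Ube2 median at day 21 was -1.03 with a pseudocount of 0.1, -0.75 without a filter and -0.75 under quantile normalization. At day 14 it was near 0 and its sign has no meaning: it was -0.042 with the filter on the WT groups alone, -0.011 under median-of-ratios scaling, -0.0068 under that scaling over the genes tested, -0.012 under quantile normalization, -0.018 without Usp6nl, Ube2cbp and pseudogenes, and 0.14 without members that share exonic bases, where the Usp median relative to all genes was 0.0049. With a pseudocount of 0.1, 2 Usp genes were higher at day 14, beside 11.8% of all genes. Under quantile normalization 1 Ube2 gene was higher at day 14, beside 5.93% of all genes. The scaling over the genes tested left 5 Ube2 genes lower at day 21, beside 18.1% of all genes. Without members that share exonic bases 12 Usp genes were lower at day 21, among fewer genes counted, beside 25.7% of all genes. The cause of the other shifts was not tested.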
